A study of Mus musculus with 6 samples.

Results

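The genes described here encode parts of the primary cilium in N2a cells, a mouse neuroblastoma line whose sample label gives the strain as C57BL/6. They were chosen by symbol from the gene expression table: protein-coding genes named Ift, Bbs, Tctn, Nphp, Fam92 or Dync2 with their numbers, and single symbols such as Arl13b, Cep290 and Inpp5e. The pattern matched 51 of the 54532 genes listed, of which 22046 are protein-coding. Fam92b was known to be far lower in the cells transfected with si-circRtn4 when the symbols were picked, so the values of the comparison between the groups are given below as a description.

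RNA was sequenced from N2a cells that received si-NC, a control siRNA (3 libraries), or si-circRtn4 (3 libraries), an siRNA against the back-splice junction of circRtn4, a circular RNA made from exons of Rtn4. All 6 libraries come from the same cell line. The labels describe only a growth medium with serum. The study's general methods for N2a cells describe a switch to differentiation medium with retinoic acid a day after transfection and a later harvest, and whether the sequenced cells went through it is not stated, so their state, growing or differentiating, is unknown for every value below. Nothing says that the libraries of a group came from separate cultures, so the errors below measure the spread between these libraries, which may be technical. The comparison asks which transcripts differ once circRtn4 is silenced. circRtn4 itself is not a row of the gene table and was not analysed here.

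The primary cilium is a single antenna-like extension of the cell surface that carries receptors, among them those of the Hedgehog pathway. It grows from a basal body, a modified mother centriole that docks at the membrane through its distal appendages. Intraflagellar transport (IFT) trains move cargo along the axoneme: the IFT-B complex travels outward with kinesin-2, and the IFT-A complex returns with the dynein-2 motor. The BBSome, the complex affected in Bardet-Biedl syndrome, rides on the trains and carries membrane proteins, while the transition zone at the base acts as a gate. Proliferating neuroblastoma cells and neurons can both bear such a cilium.

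Promoter sequence was looked at first, because many cilium genes carry an X-box, an inverted repeat bound by RFX transcription factors. The RefSeq table of promoters (build GRCm38.p6, from 250 bases before to 50 bases after each start) held a window for 43 of the 51 genes, with Fam92b listed there as Cibar2. The letters searched were GTTGCC on either strand, the same letters followed by 1 to 4 free bases and GCAAC, which is a longer form of the first and always contains it, and GTAAACA, the core bound by the forkhead factor FOXJ1. The longer form was found in Fam92b, B9d2 and Tctn1. The 150 bases before the start of Fam92b (chr8:120177470-120177619, minus strand) are shown because they hold the longer form at 2 places, and a stretch of 30 bases is shown for the other two (B9d2, chr7:25680788-25680817, plus strand, and Tctn1, chr5:122264411-122264440, minus strand). Capitals mark the longer form, 5′ to 3′.
Fam92b: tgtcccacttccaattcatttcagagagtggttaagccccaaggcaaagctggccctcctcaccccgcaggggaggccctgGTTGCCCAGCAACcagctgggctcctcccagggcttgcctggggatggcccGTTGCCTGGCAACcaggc
B9d2: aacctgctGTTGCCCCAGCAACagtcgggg
Tctn1: gcgctaggctgtgactGTTGCCCGGGCAAC

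In Fam92b the 2 matches began 69 and 18 bases before the RefSeq start, while those of B9d2 and Tctn1 lay 16 and 36 bases after theirs. GTTGCC occurred in the windows of 21 of the 43 cilium genes (48.8%), against 14.8% of the 8879 genes with a window that were also tested for expression and 14.1% of all 27025 genes with a window. The longer form occurred in 3 of 43 (6.98%), against 0.451% and 0.381%. The FOXJ1 core was found in 0 of 43, against 3.04% and 4.05%. These windows were 59.0% G and C in the cilium genes, 61.2% in the genes tested and 53.8% in all genes. Among the genes that figure most in the results below, GTTGCC was found in Fam92b, Ift140 (109 bases before the start), Ift172 (at the start) and Arl13b (181 bases before it), and not in the window of Bbs9. A match is a run of letters, not a site shown to be bound. The genes were not picked by promoter, but the letters were chosen after promoter windows had been seen. The shares are therefore a description.

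**Figure D1:**
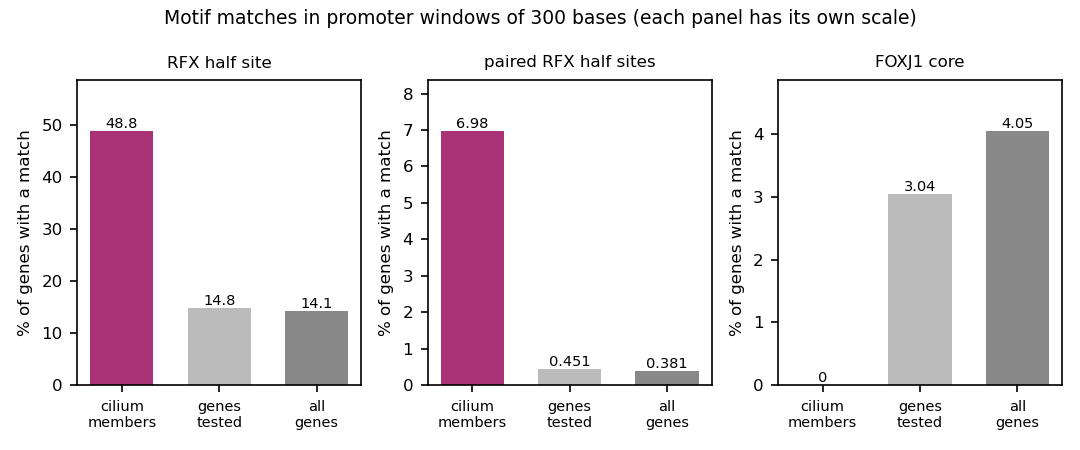
Percent of genes with a match (y axis, a separate scale in each panel) for GTTGCC (left), its paired form (middle) and the FOXJ1 core (right), in windows of 300 bases. The 43 cilium genes stand at 48.8%, 6.98% and 0%, the 8879 genes tested at 14.8%, 0.451% and 3.04%, and all 27025 genes at 14.1%, 0.381% and 4.05%. The letters were chosen after promoter windows had been seen.

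Expression was deposited as FPKM, fragments per length of gene and per size of library, which allows levels to be compared between genes. FPKM times gene length, divided by a constant step for each library, gave whole numbers (within 0.01) that were read as read counts, summing to 14100818 to 14748929 per si-NC library and 13541198 to 15122063 per si-circRtn4 library. The cells carried the transcripts of their lineage, with the summed FPKM of 13 neuroblastoma and sympathetic neuron genes at 2545 to 2798 in si-NC. That sum was 1103 to 1578 in si-circRtn4, and 6 of the 12 genes tested, Chgb, Chga, Dbh, Th, Phox2a and Gata2, were called lower by limma. The part of this shift in the results below was not tested, and in bulk RNA fewer cells of a type cannot be told apart from less RNA per cell. Summed markers of fibroblasts, astrocytes, macrophages and epithelium stayed below 1 FPKM in every library, and those of oligodendrocytes lay between 3.80 and 5.70 FPKM.

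The cilium genes were expressed at modest levels in si-NC, with a median of 4.48 FPKM over the 51 against 8.25 FPKM over all genes tested. Arl3, the small GTPase that releases lipidated cargo inside the cilium, was the highest at 40.6 ± 5.26 FPKM (SD, n = 3). Ift20, the IFT-B subunit that also sits at the Golgi, followed at 24.6 ± 0.726 FPKM, and Ahi1 of the transition zone at 14.4 ± 0.636 FPKM, so these 3 stood apart from each other by more than their spread. From rank 4 to rank 20 the means ran from 12.1 FPKM (Ttc8) to 7.32 FPKM (Nphp4), and over all 51 genes 39 of the 50 pairs of neighbours in the order differed by less than the larger SD of the pair. The lowest were Wdr19 at 0.948 ± 0.163 FPKM and Rpgrip1l at 0.875 ± 0.181 FPKM, the gene for a scaffold of the transition zone, and these 2 overlapped.

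Genes were tested with limma on log2(FPKM + 1) where the mean over the 6 libraries reached 1 FPKM, and called at an adjusted p under 0.05 over all 12749 genes tested. Of the 51 cilium genes 49 were tested, and Wdr19 and Rpgrip1l were below the minimum. In si-circRtn4, 3 were called lower (6.12% of 49), where 4.82% of all genes tested were, and 1 was called higher (2.04%), where 4.36% were. The remaining 45 were not called. Nothing is read from these shares, since the comparison itself entered the choice of genes. The calls were Fam92b, Bbs9 and Ift140 lower and Ift172 higher.

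The replicate numbers were taken to pair the libraries, from correlations in these data and not from the labels. The fit above and the fits with a library left out do not use this pairing. Standard errors and calls below are therefore those of an unpaired fit, except where the block is named. With the number as a block, 7 of the 49 cilium genes were called lower (B9d1, Bbs2, Bbs9, Cep164, Fam92b, Ift140 and Ttc8) and 2 higher (Arl13b and Ift172). Of all 12749 genes tested 1243 were called lower and 1185 higher with the block, and the share called went from 9.19% to 19.0%. Nothing is read from the larger number of cilium genes called, since calls rose over all genes. With any 1 library left out only Fam92b was called lower, and Ift172 was called higher only without si-circRtn4 replicate 1. Rescaled to TPM, 2 of the 49 were called lower (Bbs9 and Fam92b) and 2 higher (Arl13b and Ift172), where 393 and 972 of all 12749 genes were. The share of higher genes among all calls was 71.2% rather than 47.5%. TPM divides by the summed FPKM of a library, of which the gene Gm23935 held 20.1% to 20.7% in si-NC and 13.5% to 18.8% in si-circRtn4. It held 0.272% to 0.460% of the reads. The part of Gm23935 in the TPM values here and below was not tested.

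The median log2 fold change of the 49 genes was -0.07, beside 0.00 over all genes tested, and 33 of 49 (67.3%) were below 0, beside 49.6%. As TPM the median was 0.01 beside 0.09 over all genes, so its sign depended on the scaling. The changes were small: 47 of 49 (95.9%) lay within 0.5 of 0 on the log2 scale, beside 91.6% of all genes, the exceptions being Fam92b and Bbs9. In 16 cilium genes every si-circRtn4 library was below every si-NC library (32.7%, where 15.5% of all genes tested were), in 5 every one was above (10.2%, where 16.2% were), and in 28 the groups overlapped. The 16 were spread over all groups by role but the lipidated cargo group, with 6 in the transition zone (Ahi1, B9d1, Nphp4, Mks1, Cc2d2a and Tmem67), 3 in the BBSome, 2 each in IFT-B, IFT-A and the basal body, and Dync2h1. Again the choice of genes used this comparison, and the counts are a description.

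**Figure D2:**
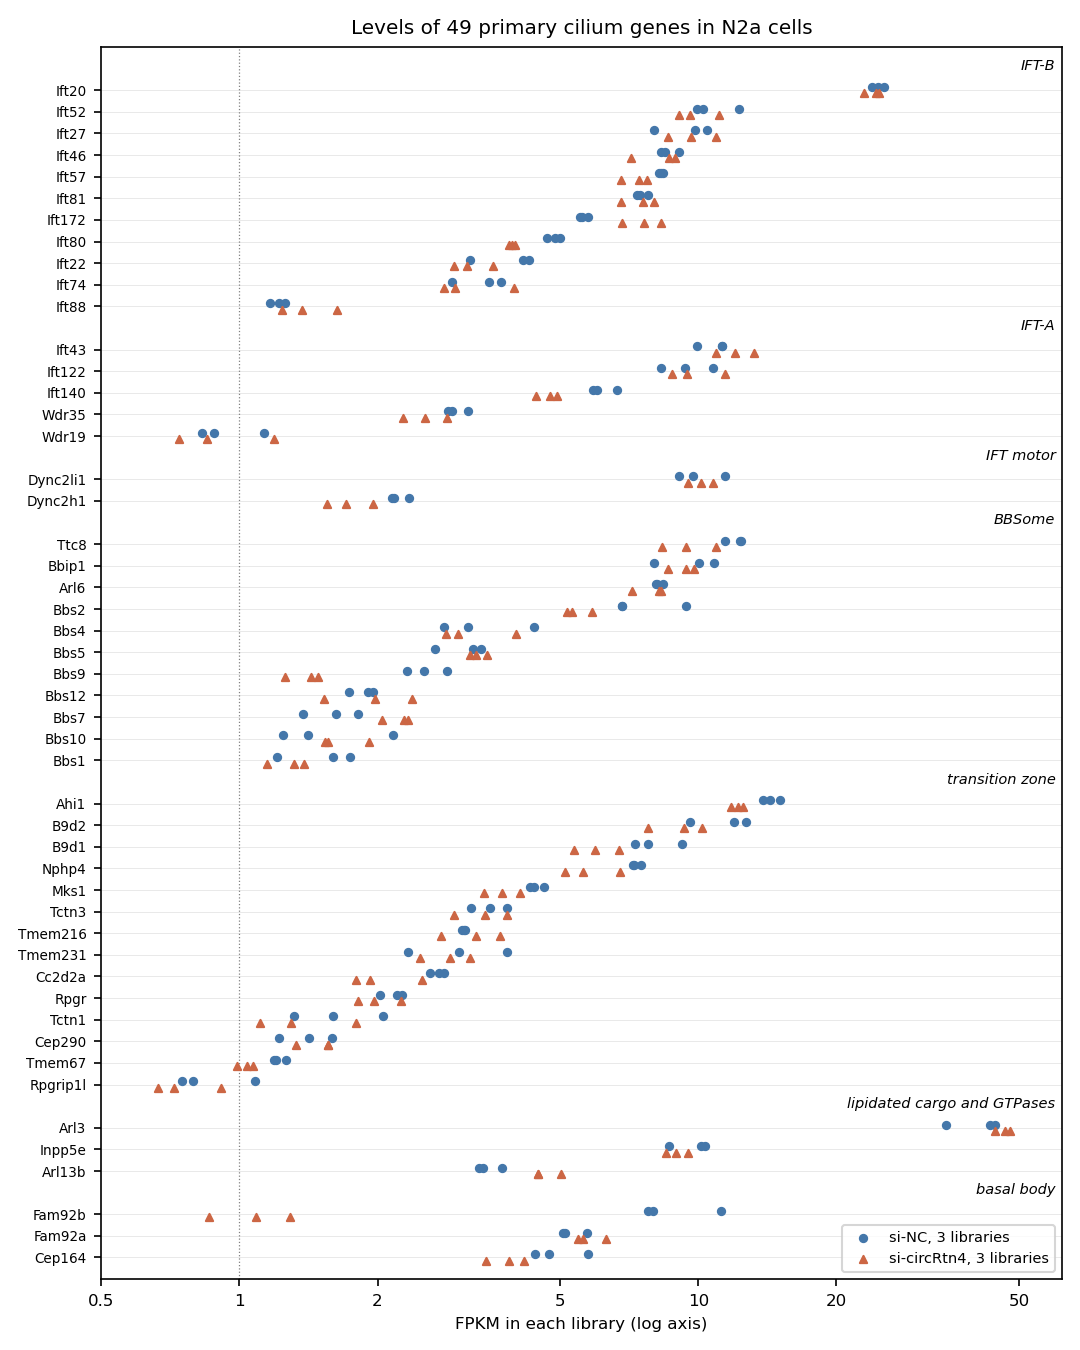
FPKM (x axis, log scale) of 49 of the 51 cilium genes, by role and by mean level, in the 3 si-NC libraries (blue circles) and the 3 si-circRtn4 libraries (orange triangles), with a dotted line at 1 FPKM. Fam92b at the base of the plot is the gene whose groups stand furthest apart, at 7.79 to 11.2 against 0.857 to 1.29 FPKM, and in most other genes the symbols lie close together or mix.

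The basal body genes were Fam92a, Fam92b and Cep164. Fam92a and Fam92b are a pair of related BAR-domain proteins that bind the centriolar protein Chibby1 at the ciliary base, and Fam92b is best known from cells with many motile cilia. Fam92b (ENSMUSG00000042269, chr8:120166397-120177466, minus strand) was at 11.2, 7.95 and 7.79 FPKM in si-NC replicates 1 to 3 and at 0.857, 1.29 and 1.08 FPKM in si-circRtn4. All si-circRtn4 libraries lay far below all si-NC libraries, and the highest of them was still under the lowest si-NC library by several-fold. The means were 8.98 ± 1.93 and 1.08 ± 0.217 FPKM (SD, n = 3), so 12% of the si-NC level remained. The log2 fold change of FPKM + 1 was -2.25 (SE 0.15), the largest fall among the 10783 protein-coding genes tested on this scale. By level Fam92b was rank 13 of the 51 genes in si-NC and rank 48 in si-circRtn4. These values rested on 236, 160 and 152 reads in si-NC and 17, 28 and 22 reads in si-circRtn4. It was called lower in all 12 alternative fits, with log2 fold changes from -3.003 to -2.10.

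Fam92a, the sister gene of Fam92b, was not called. It was at 5.06, 5.12 and 5.72 FPKM in si-NC and at 6.30, 5.47 and 5.60 FPKM in si-circRtn4, and the groups overlapped. The log2 fold change was 0.11 (SE 0.09). Cep164, a distal appendage protein needed for docking, had means of 4.96 and 3.83 FPKM. Its si-circRtn4 libraries were all below its si-NC libraries, but it was called only with the replicate block (log2 fold change -0.30). Cby1, which encodes Chibby1 and was looked up for that role, was at 26.4, 24.2 and 18.3 FPKM in si-NC and 19.3, 16.6 and 16.3 FPKM in si-circRtn4, with overlapping groups (log2 fold change -0.37, limma adjusted p = 0.146). It was lower in 3 of 3 numbered pairs and called lower with the replicate block (limma adjusted p = 0.0346), and also without si-NC replicate 3.

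**Figure D3:**
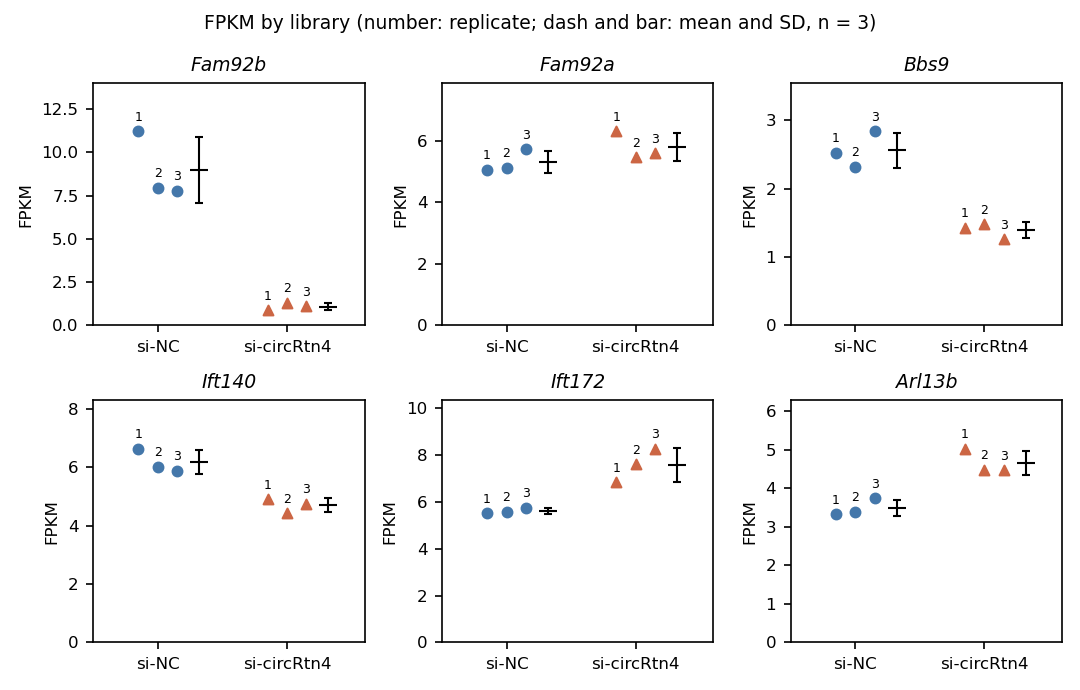
FPKM (y axis from 0, a separate scale in each panel) in each library of Fam92b, Fam92a, Bbs9, Ift140, Ift172 and Arl13b, with the replicate number above each point and the mean and SD (n = 3) as a dash and bar. The groups are apart in every panel but that of Fam92a, and the si-circRtn4 mean of Fam92b is 12% of its si-NC mean.

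IFT-B, the complex that carries cargo toward the tip, was represented by 11 genes, all tested, from Ift88 at 1.22 FPKM to Ift20 at 24.6 FPKM in si-NC. Of these 1 was called higher, none lower and 10 were not called, with a median log2 fold change of -0.05. Ift172, the largest subunit, which binds membranes and helps turn the train at the tip, was at 5.52, 5.59 and 5.74 FPKM in si-NC and 6.83, 7.62 and 8.27 FPKM in si-circRtn4. All si-circRtn4 libraries were above all si-NC libraries, whose own spread was narrow (SD 0.117 FPKM). The log2 fold change was 0.37 (SE 0.08), called higher. Ift80 had the largest fall of the complex, from 4.86, 4.99 and 4.67 FPKM to 3.93, 3.87 and 3.98 FPKM. Its groups did not overlap, and it was not called (log2 fold change -0.25, SE 0.08). The core subunits Ift88, Ift52, Ift46, Ift74 and Ift81 all had overlapping groups, with log2 fold changes between -0.11 and 0.12.

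IFT-A, the complex of return transport that also brings G protein-coupled receptors into the cilium, had 5 genes, 4 of them tested, with 1 called lower. That gene, Ift140, a core subunit, was at 6.64, 6.03 and 5.89 FPKM in si-NC and 4.91, 4.43 and 4.75 FPKM in si-circRtn4. The highest si-circRtn4 library lay below the lowest si-NC library, and the log2 fold change was -0.33 (SE 0.08). At the other end was Ift43, at 11.2, 11.3 and 9.91 FPKM against 10.9, 13.2 and 12.04 FPKM. Its groups overlapped (log2 fold change 0.15, SE 0.09, not called). Ift122 had a log2 fold change of 0.05 and Wdr35 one of -0.16, neither called.

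The dynein-2 motor that pulls the trains back had 2 genes. Dync2h1, its heavy chain, was at 2.17, 2.15 and 2.34 FPKM in si-NC and 1.95, 1.71 and 1.55 FPKM in si-circRtn4. All si-circRtn4 libraries were lower, and the change was not called (log2 fold change -0.24, SE 0.11). Dync2li1, the light intermediate chain that stabilises the heavy chain, was at 11.4, 9.06 and 9.71 FPKM against 10.8, 9.51 and 10.1 FPKM, with overlapping groups and a log2 fold change of 0.01 (SE 0.10).

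The BBSome group held 11 genes: 8 subunits, the chaperonin-like Bbs10 and Bbs12 that help assemble them, and Arl6, the GTPase that recruits the complex to membranes. All were tested, and 1 was called lower and 10 not called, with a median log2 fold change of -0.05. Bbs9, a core subunit, was at 2.53, 2.32 and 2.84 FPKM in si-NC and 1.43, 1.48 and 1.26 FPKM in si-circRtn4. The groups were well apart, and the mean was 54.2% of that in si-NC (log2 fold change -0.57, SE 0.11). This was the second largest fall of the cilium genes, and it rested on 114 to 248 reads per library. At this level the 1 FPKM added before taking logs makes the fold change look smaller than the FPKM do. The call was lost with any 1 library left out, with the log2 fold change between -0.62 and -0.52. Over all 12 alternatives the log2 fold change ran from -0.86 to -0.52, and the call was kept in 5.

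No other gene of the BBSome group was called. Bbs7, another core subunit, went from 1.62, 1.81 and 1.38 FPKM to 2.33, 2.29 and 2.04 FPKM, with every si-circRtn4 library above every si-NC library (log2 fold change 0.31, SE 0.12). Bbs2 and Ttc8 had si-circRtn4 libraries below all si-NC libraries, at means of 7.68 and 5.44 FPKM for Bbs2 and 12.1 and 9.55 FPKM for Ttc8, and were called only with the replicate block. In Bbs1, Bbs4, Bbs5, Bbip1, Arl6, Bbs10 and Bbs12 the groups overlapped.

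The transition zone was the largest group, with 16 genes of the tectonic, MKS, B9 and nephronophthisis modules that form the gate, and 15 were tested. None was called by limma, while 1 (B9d1) was called with the block. Of the 15, 12 (80%, beside 49.6% of all genes tested) had a log2 fold change below 0, with a median of -0.13, and in 6 (40%, beside 15.5%) the si-circRtn4 libraries were all below the si-NC libraries. As TPM, 9 of the 15 were below 0 (60%, beside 34.5% of all genes), with a median of -0.11 beside 0.09. B9d1, one of the B9-domain proteins of the MKS module, was at 9.19, 7.75 and 7.27 FPKM in si-NC and 6.71, 5.97 and 5.35 FPKM in si-circRtn4. The groups did not overlap (log2 fold change -0.37, SE 0.11). Cep290, which links the microtubules to the membrane, overlapped at 1.41 and 1.48 FPKM, and so did Tctn1 and B9d2, which share the longer promoter form with Fam92b, with log2 fold changes of -0.15 and -0.30.

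The lipidated cargo group held Arl13b, Arl3 and Inpp5e, which act in sequence: Arl13b, a GTPase that marks the ciliary membrane, activates Arl3, which releases Inpp5e, a phosphoinositide phosphatase, inside the cilium. Arl13b was at 3.33, 3.39 and 3.74 FPKM in si-NC and 5.03, 4.48 and 4.48 FPKM in si-circRtn4. All si-circRtn4 libraries were above all si-NC libraries, with a log2 fold change of 0.33 (SE 0.09) that was not called. It was called in 3 of the 12 alternatives, TPM, limma-voom and the replicate block. Inpp5e was at 10.1, 10.3 and 8.64 FPKM against 9.50, 8.48 and 8.94 FPKM, with overlapping groups (log2 fold change -0.10, SE 0.09). Of its exon bases 20.3% also belong to Pmpca on the opposite strand, and whether counting used the strand is not given in the sources used here. The same holds for Tctn1 and Hvcn1 (19.0%).

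**Figure D4:**
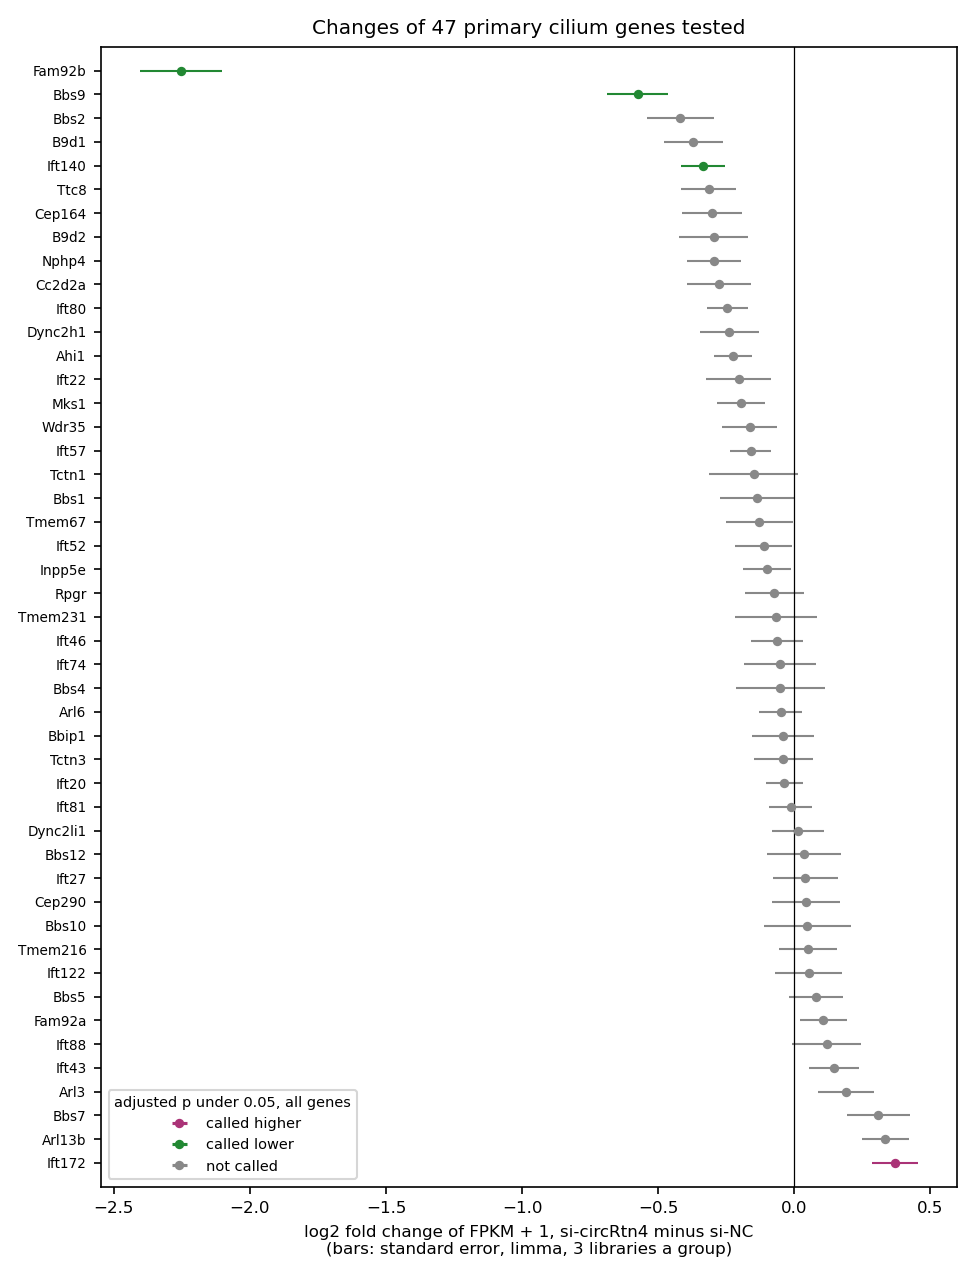
Log2 fold change of FPKM + 1 (x axis, si-circRtn4 minus si-NC) with its standard error from limma for 47 of the 49 cilium genes tested, coloured by call. Fam92b stands alone at -2.25, Bbs9 follows at -0.57, and the other 45 lie between -0.42 and 0.37.

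A further 108 cilium genes were placed in 7 lists that the symbol pattern leaves out, of which 106 were listed and 59 tested. Of these 2 were called higher (3.39%, where 4.36% of all genes tested were) and 2 lower (3.39%, where 4.82% were). In this fit neither share exceeded that of all genes. With the replicate block 5 of the 59 were called higher and 7 lower, where 1185 and 1243 of all 12749 genes tested were. None was called among 10 tested IFT, kinesin-2 and dynein-2 genes or among 10 tested BBS and transition zone genes, but with the block Hspb11 and Tctex1d2 of the first list were called higher and Sdccag8 and Tmem107 of the second lower. The 2 called higher were among 20 tested basal body and ciliogenesis genes, and both encode distal appendage proteins. Cep83, which anchors the appendage, was at 7.60, 9.19 and 8.83 FPKM in si-NC and 14.8, 13.7 and 13.5 FPKM in si-circRtn4 (log2 fold change 0.65, SE 0.09, limma adjusted p = 0.00632). Fbf1 was at 13.7, 12.9 and 11.3 FPKM against 21.03, 20.3 and 18.7 FPKM (log2 fold change 0.63, SE 0.09, limma adjusted p = 0.00887). Both rose in 3 of 3 libraries without overlap and were called in all 12 alternatives, with adjusted p up to 0.0294 for Cep83 and 0.0388 for Fbf1. Of other appendage genes, Sclt1 overlapped between the groups. Cep89 had every si-circRtn4 library below every si-NC library (log2 fold change -0.27, limma adjusted p = 0.0736) and was called lower with the replicate block (limma adjusted p = 0.0420).

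The 2 called lower were Kiss1r and Rsph9. Kiss1r, a receptor found in the cilia of neurons, was at 4.95, 4.08 and 4.37 FPKM in si-NC and 2.99, 3.27 and 2.16 FPKM in si-circRtn4 (log2 fold change -0.53, limma adjusted p = 0.0481). Rsph9, a radial spoke protein of motile cilia, was at 5.21, 3.25 and 3.75 FPKM against 1.84, 1.93 and 2.49 FPKM (log2 fold change -0.70, limma adjusted p = 0.0363). Their calls were less stable, at 3 and 5 of the 12 alternatives, with adjusted p from 0.0291 to 0.151 for Kiss1r and 0.0295 to 0.130 for Rsph9.

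Of 17 Hedgehog pathway genes 6 were tested and none was called. Ptch1 was at 6.64 to 7.66 FPKM and Sufu at 5.30 to 6.05 FPKM over the 6 libraries, while Smo, Gli1, Gli2, Gli3 and Shh did not exceed 0.0254 FPKM in any. Of 7 RFX factors 5 were tested and none was called. Rfx3, a main regulator of cilium genes, was at 5.16, 4.72 and 4.90 FPKM in si-NC and 4.01, 3.20 and 4.68 FPKM in si-circRtn4 (log2 fold change -0.27, limma adjusted p = 0.211). Markers of multiciliated cells, where Fam92b is best known, were near absent: 9 of 10 were under 1 FPKM in every library, Mcidas, Gmnc, Ccdc153 and Tmem212 were listed at 0 and Foxj1 lay between 0.218 and 0.682 FPKM. Rsph1 was the exception among these 10 at 5.65 to 8.88 FPKM, with overlapping groups. In the wider list of multiciliation and motile axoneme genes 3 of 23 were tested. They were Rsph1, Rsph9 and Ccdc40, the last at 3.81 to 4.40 FPKM over the 6 libraries and not called.

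Sites for miR-24-3p were counted, since the study examined circRtn4 together with this microRNA, and sites for the seed of the siRNA guide were counted beside them. The mature sequence from RefSeq is printed with its seed, bases 2 to 8, in capitals.
miR-24-3p: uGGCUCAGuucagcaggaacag
The matching letters, CTGAGCC, occurred in the longest annotated 3′ UTR of 6 of the 49 cilium genes tested (12.2%), against 19.5% of 10699 tested genes with a 3′ UTR. None of the 6, which included Cep164, Ift46, Tctn1 and Tmem216, was called. The letters that pair with the guide seed, ACCCTTT, occurred in Bbs1, Cep164 and Tctn3 (6.12%), against 12.5%. Neither run of letters was in the 3′ UTR of Fam92b, Bbs9, Ift140 or Ift172, which says only that these letters are not there.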

How the data were processed

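RNA-seq of 6 N2a libraries (3 si-NC, 3 si-circRtn4) was analysed from the FPKM values per gene that the authors deposited. The submitters' processing notes name Bowtie 0.12.2 and the builds mm8 and mm9 without a role, yet 53499 of 54532 genes (98.1%) have their GENCODE M21 (GRCm38) coordinates. The counting tool is not given in the sources used here. A further 6 per-sample columns, not assigned to a sample here, were not used.

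limma 3.58.1 in R 4.3.3 (lmFit, eBayes with trend) was run on log2(FPKM + 1) for genes whose mean over the libraries reached 1 FPKM, with Benjamini-Hochberg adjustment over all 12749 genes. This scale understates the change of low genes. Members, gene lists and tests were chosen with earlier results of these data known, and the promoter letters after promoter windows had been seen. Values per library are given for Fam92a, Fam92b, each called member and the largest fall and rise of each role, and, of other lists, for genes called; Cby1, Cep89, Sclt1, Rfx3, Smo and the like were named outside this rule. Deviations from group means correlated at 0.19 to 0.331 between libraries with the same number and at 0.00913 at most otherwise, so the numbers were taken to pair the libraries, from the data and not the labels. Deviations within a group cancel out, so positive values for the same number push the others down, and part of this contrast is built in. On simulated data with 194 genes changed 2-fold among 12794 tested, 91.75% were recovered and 6.316% of calls were false. The simulation gave every gene the same dispersion and had no replicate effect. These rates therefore need not hold for the libraries here or for smaller changes. The values of 2 members and 1 marker gene are not reported here, though the counts include them. The listed siRNA was read as the passenger strand. Alternatives were a pseudocount of 0.1, no filter, TPM, quantile normalization, limma-voom on the recovered reads, the replicate block and each library left out. Tables and figures used Python 3.11.15, pandas 2.3.3 and matplotlib 3.10.9.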

Additional observations from a re-analysis of the deposited data

How the results depend on the processing

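Across 12 alternatives the 14 cilium genes that the naming rule picked gave 168 log2 fold changes: 140 kept their direction and their side of the threshold, 21 lost the call, 4 gained it and 3 changed sign. The changes of sign were those of Dync2li1, at -0.051, -0.0060 and -0.027 without si-NC replicate 2, si-NC replicate 3 and si-circRtn4 replicate 1, in a range from -0.051 to 0.10 with each library left out. Fam92b was called in 12 of 12, Ift172 in 6, Bbs9 in 5 and Ift140 in 4. Cilium genes called higher numbered 0 without the filter on low values, where 28442 genes were tested, and 2 as TPM, in limma-voom and with the replicate block, against 1. Those called lower numbered 1 without the filter and 7 with the block that pairs the libraries, against 3. With each library left out, 0 to 1 were called higher and 1 to 1 lower, and all genes called numbered fewest without si-NC replicate 2 (163 higher, 217 lower, against 556 and 615), with fewer libraries in each such fit. Of the other cilium genes, 5 were called higher and 7 lower with the block, against 2 and 2. Calls over all genes rose from 9.19% to 19.0% with it. The lower calls numbered 1 with a pseudocount of 0.1, 0 without the filter and 1 as TPM, and 0 to 1 with each library left out. The causes of these differences between fits were not tested. The block changed the direction of no value, since it leaves fold changes as they are. Bbs10 and Bbs12 rested on 53 to 95 reads per library, and how small a change this depth could show was not tested.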

Other observations

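No tested gene near Fam92b was called by limma, with or without the replicate block. Of 9 genes that start within 250 kb, 5 were tested, with log2 fold changes from -0.18 to 0.27. The nearest protein-coding gene tested, 6430548M08Rik, was at 6.36, 6.02 and 5.81 FPKM in si-NC and 6.62, 6.92 and 5.42 FPKM in si-circRtn4. Zdhhc7, which encodes a palmitoyltransferase, was at 26.4, 22.9 and 21.8 FPKM against 21.3, 21.5 and 19.3 FPKM, just without overlap (limma adjusted p = 0.252, and 0.0976 with the block). Gse1 was at 52.03, 39.9 and 41.9 FPKM against 46.9, 35.8 and 38.6 FPKM, lower in 3 of 3 numbered pairs, as Zdhhc7 was, with overlapping groups (limma adjusted p = 0.570, and 0.115 with the block). The lincRNA A330074K22Rik, under the minimum for the test, was at 1.17, 1.003 and 0.947 FPKM against 0.791, 0.516 and 0.580 FPKM, on 20 to 44 reads per library.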
